A study of Mus musculus with 4 samples.

Results

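Lysosomal cathepsins are the proteases that degrade proteins delivered to the lysosome. The 10 described here were Ctsa, Ctsb, Ctsc, Ctsd, Ctse, Ctsh, Ctsk, Ctsl, Ctss and Ctsz. They were taken by gene symbol from tables that hold 21506 genes, and the transcript with the longest exon length stood for each gene. RNA was sequenced from 32Dclone3, a mouse myeloid cell line that depends on interleukin-3 (IL3) and was grown with IL3 from WEHI medium in all 4 libraries. The 2 control libraries came from cells stably infected with the XZ control virus, and the 2 miR-125b libraries from cells infected with XZ-miR-125b, which carries a miRNA of blood stem and progenitor cells. Each condition was infected with 2 virus supernatants, so the replicates are separate infections of 1 line and the p-values measure only the spread between them. Neither the promoter of the vector nor any sorting or cloning of infected cells is described in the labels. The comparison asked how gene expression differed between the 2 kinds of infected cells.

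Cathepsins are made as inactive precursors, tagged with mannose 6-phosphate, carried to endosomes by mannose 6-phosphate receptors and activated by cleavage at acid pH. Most are cysteine proteases of the papain family (Ctsb, Ctsc, Ctsh, Ctsk, Ctsl, Ctss and Ctsz), Ctsd and Ctse are aspartic proteases, and Ctsa is a serine carboxypeptidase. Myeloid cells use them to digest engulfed material, to process antigen and, through cathepsin C, to activate the serine proteases of their granules. Many lysosomal genes carry a promoter element with the core CACGTG, to which the MiT transcription factors such as Tfeb bind.

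The introduced miRNA is shown first because its seed, bases 2 to 8 in capitals, defines the 3′ UTR sites looked for in the cathepsins. The mature sequence is from RefSeq (GRCm38.p6), where Mir125b-1 places it on the plus strand at chr9:41581940-41581961.
mmu-miR-125b-5p: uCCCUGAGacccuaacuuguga

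A 7mer-m8 site (CTCAGGG) pairs with the whole seed, an 8mer (CTCAGGGA) adds an A, a 7mer-A1 (TCAGGGA) keeps the A and drops the first base, and a 6mer is TCAGGG. Sites were read from the 3′ UTRs of GENCODE M21 (GRCm38) on the transcript strand, and positions count from the first base after the stop codon. Of the 10 cathepsins, 4 held a site. Ctsa held 7mer-m8 sites at positions 156 and 678 of 1798 bases, Ctsd a 7mer-A1 at 19 of 660, Ctsb a 6mer at 2459 of 3594 and Ctsl a 6mer at 356 of 884. The sites stand in capitals within 30 bases of sequence.
Ctsa, site at 156: ccagcctgggcCTCAGGGcgtcacagacag
Ctsa, site at 678: gagcaaatcccCTCAGGGgccccagctgct
Ctsd, site at 19: ccttctccactgTCAGGGAactggatcaga
Ctsb, site at 2459: gggaaataagttTCAGGGggttagagtctg
Ctsl, site at 356: ctaaatactgatTCAGGGtgacatggtaca

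The letters of none of these sites occurred in the 3′ UTRs of Ctsz, Ctsc, Ctss, Ctsk, Ctse or Ctsh. None of the 10 held an 8mer, which 5.01% of 9879 tested genes with a 3′ UTR did. The shares were 9.19% for a 7mer-m8 as the best site, 6.37% for a 7mer-A1, 12.7% for a 6mer and 66.7% for none. A match is a description of letters and not evidence of binding.

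The tables held between 10.4 and 12.6 M reads per library over all transcripts, and 1 read on a transcript of 1 kb was worth between 0.0792 and 0.0964 RPKM, a read density scaled to exon length and to the library's M of reads. Hairpin transcripts of Mir125b-1 had 0 reads in both control libraries and 4 in each miR-125b library, while Mir125b-2 had 0 in all. Across tested genes the log2 values of the control pair correlated at r = 0.957 and those of the miR-125b pair at r = 0.979, as a description over genes that share libraries. Control 2 stood apart from control 1 along base composition, since the difference between them followed GC content with rho = 0.476 over 10247 genes, against 0.0514 for the miR-125b pair. Of 6 tested myeloid progenitor markers 1 had a positive and 5 a negative log2 fold change. The positive one was Mpo, the granule enzyme myeloperoxidase, at 39.1 and 54.2 RPKM in the controls and 273.0 and 105.3 with miR-125b (1.86 ± 0.44, limma adjusted p = 0.410). Csf2rb, the signalling subunit of the IL3 receptor, was at 69.3 and 59.9 RPKM in the control and 33.8 and 50.1 in the miR-125b libraries, and Ptprc (CD45) lay between 42.4 and 57.3. The stem and progenitor markers Kit and Cd34 were at or near 0, with at most 0.0186 RPKM for Kit and 0.181 for Cd34, so the line did not carry every marker of a primary progenitor. Summed lymphoid markers came to 0.0642 to 0.421 RPKM and summed fibroblast markers to 0.114 to 0.322.

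The levels of the cathepsins, on the RPKM scale that allows genes of different length to be compared, ran from 0 RPKM for Ctsh to 353.6 RPKM for Ctsz in miR-125b 1. Ctsz was highest with a mean of 267.0 RPKM over the 4 libraries, ahead of Ctsd at 184.0, Ctsc at 59.5 and Ctsb at 53.4. Ctsa followed at 22.9, and Ctss at 6.16 and Ctsl at 4.25 were far lower. Ctsk (0.266), Ctse (0.265) and Ctsh (0) closed the order. Neighbours in this order whose ranges over the libraries overlapped were Ctsz and Ctsd, Ctsc and Ctsb, Ctss and Ctsl, and Ctsk and Ctse. Compared within each of the 4 libraries, Ctsz lay above Ctsd in 3 and Ctss above Ctsl in 3. Ctsc lay above Ctsb in 2 and Ctsk above Ctse in 2. Among all 21506 genes, Ctsz ranked 92 and Ctsd 180 by mean RPKM, so the transcripts of 1 cysteine carboxypeptidase and 1 aspartic protease were among the abundant mRNAs of these cells.

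**Figure D1:**
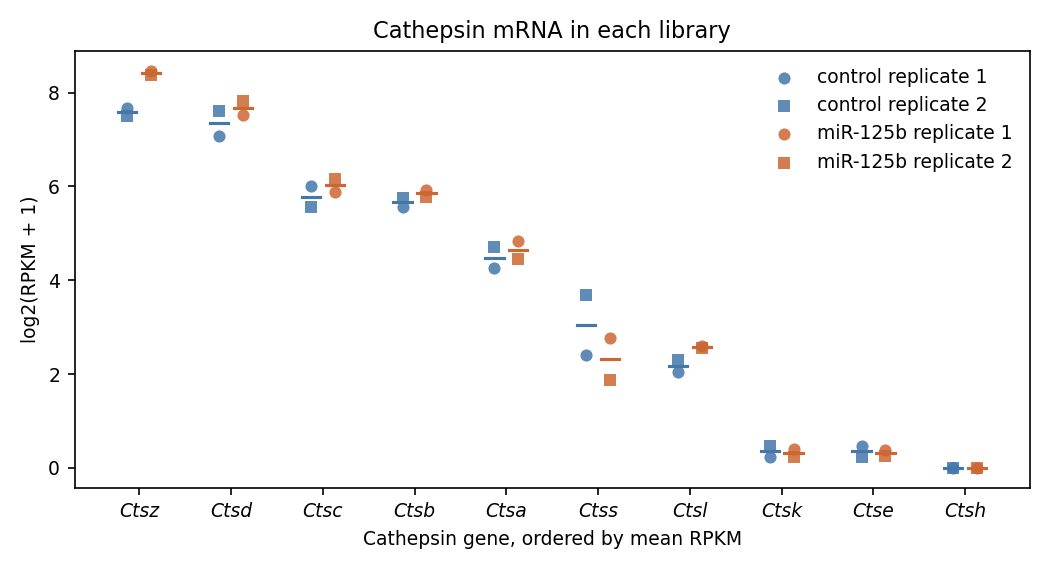
RPKM of the 10 lysosomal cathepsins in each of the 4 libraries, on a log scale, with control and miR-125b libraries as separate points. The miR-125b points of Ctsz (353.6 and 329.5) lie above both control points (204.4 and 180.7), while those of Ctsd, Ctsc, Ctsa and Ctss interleave with the controls.

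Between conditions, the 10310 genes tested were those that reached 1 RPKM in 2 or more libraries. Of the 10 cathepsins, 7 passed and 3 (Ctsk, Ctse and Ctsh) did not. None of the 7 was called at an adjusted p under 0.05 (limma with Benjamini-Hochberg adjustment), as for all genes, of which 0% were called and the smallest adjusted p was 0.104. The same count was 0 with limma-voom on the recovered reads. At an unadjusted limma p under 0.05, there was 1 cathepsin, Ctsz, against 9.38% of all tested genes (967), with 4.17% higher and 5.21% lower. On the log2(RPKM + 1) scale 6 of the 7 were higher with miR-125b and 1, Ctss, was lower, beside 52.8% of all tested genes higher. The 7 had a median log2 fold change of 0.24, and all tested genes had one of 0.02. Both miR-125b libraries lay above both controls for 3 of the 7 (Ctsz, Ctsl and Ctsb), where 22.3% of all tested genes did, and below both for 0 of the 7, where 20.4% of all did. With 2 libraries against 2, an exact permutation test of a single gene can give no p below 0.333, so these separations are descriptions.

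Cathepsin Z, also called cathepsin X, removes single residues from the carboxyl end of proteins and is made mainly by cells of the monocyte and macrophage lineage. Its transcript (chr2:174252995-174264493, minus strand, 6 exons, 1393 exon bases in mm9) was at 204.4 and 180.7 RPKM in control 1 and 2, and at 353.6 and 329.5 RPKM in miR-125b 1 and 2. Both miR-125b libraries were high, both controls low, and the groups did not overlap. The reads behind these values numbered 3197, 2612, 6216 and 5386. The mean was 192.5 ± 16.7 RPKM in the controls and 341.5 ± 17.0 with miR-125b (SD, n = 2 each), and the ratio of any miR-125b library to any control lay between 1.61 and 1.96, with 1.77 for the means. The log2 fold change was 0.83 ± 0.20 (SE, 95% interval 0.35 to 1.31), with an unadjusted limma p of 0.00505 that did not pass adjustment over all genes (adjusted p = 0.420). Leaving out 1 library kept the log2 fold change between 0.74 and 0.91, while the adjusted p moved between 0.0710, without control 1, and 1.00, without miR-125b 2. Without either miR-125b library the unadjusted limma p was above 0.05, at 0.0780 without miR-125b 1 and 0.0506 without miR-125b 2. In bulk RNA a difference in the number of cells of a kind and one in RNA per cell cannot be told apart. The gene has a GC content of 57.3%, against a median of 50.4% for tested genes, and a correction for GC gave 0.92.

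Cathepsin D is the main aspartic endopeptidase of the lysosome, and loss of it in mice and humans leads to storage disease in neurons. Ctsd (chr7:149561821-149573775, minus strand, 9 exons, 1954 exon bases) was at 134.1 and 194.5 RPKM in the controls and at 183.0 and 224.3 RPKM with miR-125b. Control 1 was lowest and miR-125b 2 highest, but control 2 lay above miR-125b 1, so the groups overlapped. The means were 164.3 ± 42.7 and 203.7 ± 29.2 RPKM (SD, n = 2 each), and the log2 fold change was 0.33 ± 0.25 (SE, 95% interval -0.28 to 0.93, limma adjusted p = 0.692). It rested on which control was used, being 0.06 without control 1 and 0.59 without control 2. Ctsd carries the 7mer-A1 site shown above, and its mean was the higher one in the cells with the miRNA, in groups that overlapped.

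Cathepsin B combines endopeptidase with dipeptidyl carboxypeptidase activity, and cathepsin L is an endopeptidase found in nearly all tissues. Ctsb (chr14:63741302-63764758, plus strand, 10 exons, 4738 exon bases) was at 46.4 and 53.0 RPKM in the controls and at 60.2 and 53.9 with miR-125b. The groups did not overlap, although control 2 and miR-125b 2 were only 1.02 times apart. Its means were 49.7 ± 4.71 and 57.0 ± 4.42 RPKM (SD, n = 2 each), and the log2 fold change of 0.20 ± 0.19 (SE, 95% interval -0.26 to 0.66, limma adjusted p = 0.742) did not pass the test. It ranged between 0.10 and 0.29 when single libraries were left out. The gene shares 771 exon bases, 16.3% of its exon length, with Fdft1, the squalene synthase gene on the other strand. Fdft1 was at 9.74, 10.5, 13.2 and 22.5 RPKM in the same library order (log2 fold change 0.71 ± 0.26, limma adjusted p = 0.505), with 0.35 without miR-125b 2 and 1.08 without miR-125b 1. Whether reads were counted by strand is not given, and the part of Fdft1 reads in the Ctsb value was not tested.

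Ctsl (chr13:64464522-64471614, minus strand, 8 exons, 1971 exon bases) was low, at 3.12 and 3.96 RPKM in the controls and 5.02 and 4.89 with miR-125b. The 2 miR-125b libraries were close to each other and both above the controls. These values rest on 69, 81, 125 and 113 reads. The means were 3.54 ± 0.596 and 4.96 ± 0.0984 RPKM (SD, n = 2 each), a ratio of 1.40, and the log2 fold change was 0.40 ± 0.19 (SE, 95% interval -0.07 to 0.86). The unadjusted limma p was 0.0828 and the adjusted p 0.565, so Ctsl did not pass. Without control 1 the log2 fold change was 0.26, and without control 2 it was 0.53.

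Cathepsin C, or dipeptidyl peptidase I, removes dipeptides from the amino end and thereby activates elastase, proteinase 3, cathepsin G and granzymes. Ctsc (chr7:95426603-95459385, plus strand, 7 exons, 2472 exon bases) was at 63.2 and 46.1 RPKM in the controls and at 58.0 and 70.5 with miR-125b. The highest value was a miR-125b library and the lowest a control, but control 1 lay above miR-125b 1. The means of 54.7 ± 12.1 and 64.3 ± 8.88 RPKM (SD, n = 2 each) gave a log2 fold change of 0.24 ± 0.23 (SE, 95% interval -0.31 to 0.79, limma adjusted p = 0.740). The log2 fold change of Ctsc depended on which control was left out, at 0.02 without control 2 and 0.46 without control 1. It was 0.10 without miR-125b 2 and 0.38 without miR-125b 1. Its GC content of 43.9% is below the median, and the GC correction moved the value to 0.12.

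Cathepsin A is both a carboxypeptidase and the protective protein that holds neuraminidase 1 (Neu1) and beta-galactosidase (Glb1) stable in a lysosomal complex. Ctsa (chr2:164658373-164666532, plus strand, 16 exons, 3674 exon bases) was at 18.2 and 25.1 RPKM in the controls and at 27.5 and 21.0 with miR-125b. The libraries of each group differed by more than the group means, at 1.38 times in the controls and 1.31 with miR-125b against 1.12 between means. The groups overlapped. The means were 21.6 ± 4.89 and 24.2 ± 4.63 RPKM (SD, n = 2 each), and the log2 fold change was 0.16 ± 0.24 (SE, 95% interval -0.40 to 0.73, limma adjusted p = 0.823). The sign changed with the library left out, from -0.06 without control 1 and -0.02 without miR-125b 1 to 0.39 without control 2. The gene with 2 7mer-m8 sites for miR-125b was thus not separated between the conditions. Its exons share 324 bases with Neurl2 and 495 bases with Pltp, both on the other strand, which is 8.82% and 13.5% of its exon length. Neurl2 was at 2.16, 2.42, 3.56 and 2.51 RPKM and Pltp at no more than 1.07 RPKM.

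The tables held 2 transcripts of Ctsa, and the longer has 1 extra exon (chr2:164659224-164659350, 127 bases) beside the 15 exons it has in common with the shorter. The longer transcript had 8 and 2 more reads in the controls and 4 and 3 more in the miR-125b libraries. Per kilobase this came to 63.0, 15.7, 31.5 and 23.6 reads in the extra exon, against 208.9, 269.0, 358.6 and 254.0 in the shorter transcript. The extra exon was thus covered less than the rest of the gene in every library, on few reads.

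Cathepsin S stays active at neutral pH and cleaves the invariant chain in cells that present antigen. Ctss (chr3:95330708-95360325, plus strand, 8 exons, 1355 exon bases) was at 4.27 and 11.9 RPKM in the controls and at 5.85 and 2.64 with miR-125b. Control 2 was by far the highest, miR-125b 2 the lowest, and the groups overlapped. The reads numbered 65, 167, 100 and 42. With means of 8.07 ± 5.38 and 4.24 ± 2.27 RPKM (SD, n = 2 each) the log2 fold change was -0.72 ± 0.47 (SE, 95% interval -1.84 to 0.40, limma adjusted p = 0.640). The value depended on which control was left out, at -0.08 without control 2 and -1.37 without control 1. Without miR-125b 1 it was -1.18 and without miR-125b 2 it was -0.27.

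The 3 cathepsins that missed the level needed for a test are known from other cells. Cathepsin K is the collagenase of osteoclasts, cathepsin E an endosomal aspartic protease of stomach and immune cells, and cathepsin H an aminopeptidase. Ctsk (chr3:95303208-95313284, plus strand, 8 exons, 1482 exon bases) had 3, 6, 6 and 3 reads, or 0.180, 0.390, 0.321 and 0.173 RPKM. Ctse (chr1:133534891-133572084, plus strand, 10 exons, 2120 exon bases) had 9, 4, 8 and 5 reads, or 0.378, 0.182, 0.299 and 0.201 RPKM. In both genes the groups overlapped, and a difference was not detectable at this depth. Ctsh (chr9:89949105-89970933, plus strand, 12 exons, 1623 exon bases) had 0 reads in all 4 libraries, which allows levels of up to 0.165, 0.178, 0.147 and 0.158 RPKM when 3 reads are taken as the limit. Such limits cover counting error only. Osteoclast markers were checked beside Ctsk, and the defining genes Acp5 and Calcr were at 0 in all libraries. The 2 that were tested are also expressed outside osteoclasts, Itgb3 at 84.9, 143.7, 64.8 and 72.8 RPKM (log2 fold change -0.68 ± 0.28, limma adjusted p = 0.527) and Nfatc1 between 11.3 and 15.0 RPKM (-0.06).

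**Figure D2:**
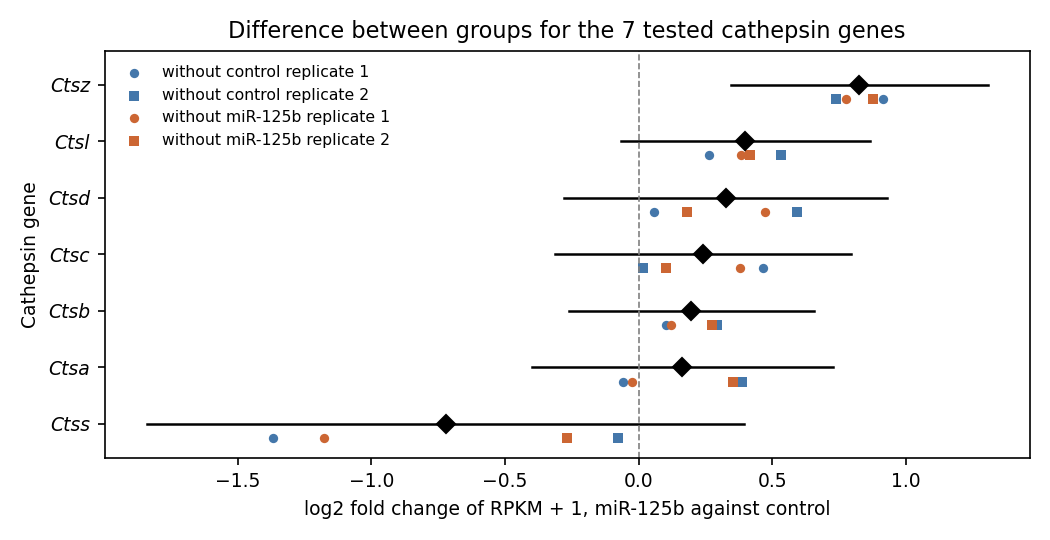
Log2 fold change, miR-125b against control on the log2(RPKM + 1) scale, of the 7 tested cathepsins with 95% confidence intervals, and the values obtained when each library was left out. The interval of Ctsz (0.35 to 1.31) is the only one of the 7 that does not reach 0, and the values of Ctsd, Ctsc, Ctsa and Ctss spread widely over the libraries left out.

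The summed level of the 10 cathepsins, added per library in RPKM, was 474.2 and 515.8 in the controls and 693.7 and 707.2 with miR-125b. The groups did not overlap, and their means of 495.0 ± 29.5 and 700.5 ± 9.51 RPKM (SD, n = 2 each) stood at a ratio of 1.42. Ctsz accounted for 72.5% of the difference between these means. Without Ctsz the sums were 269.8, 335.1, 340.2 and 377.7 RPKM, close for control 2 and miR-125b 1, and the ratio of the means was 1.19. The makeup of the sum differed accordingly. Ctsz formed 43.1% and 35.0% of it in the controls and 51.0% and 46.6% with miR-125b, while Ctsd formed 28.3%, 37.7%, 26.4% and 31.7%. Shares of the cysteine class overlapped between groups, at 67.8% and 57.4% against 69.6% and 65.3%. Ctsa, the serine class, formed between 2.97% and 4.86%. Within a library, Ctsz stood at 4.41 and 3.41 times Ctsb in the controls and at 5.88 and 6.11 times with miR-125b, while Ctsd stood at 2.89, 3.67, 3.04 and 4.16 times Ctsb. Ctsz stood at 1.52 and 0.929 times Ctsd in the controls and at 1.93 and 1.47 times with miR-125b. Ctsl stood at 0.0673 and 0.0747 times Ctsb in the controls and at 0.0835 and 0.0906 times with miR-125b. Of these ratios those of Ctsz to Ctsb and of Ctsl to Ctsb separated the groups. Those of Ctsz to Ctsd and of Ctsd to Ctsb overlapped.

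**Figure D3:**
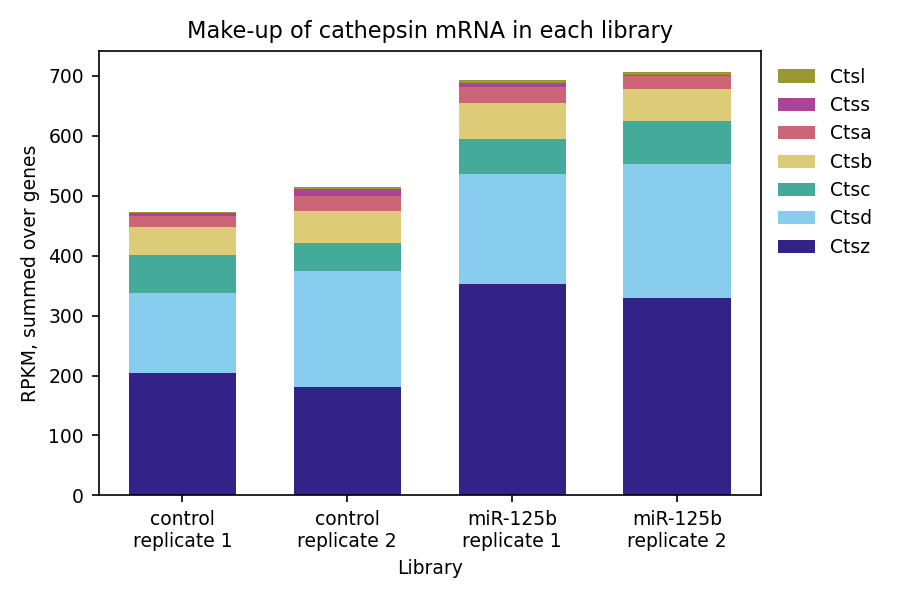
Stacked RPKM of the cathepsins in each library, with Ctsk, Ctse and Ctsh not drawn because each was below 0.4 RPKM. The bars reach 474.2 and 515.8 RPKM in the controls and 693.7 and 707.2 with miR-125b, and Ctsz makes up 72.5% of the difference between the group means.

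Genes whose profile over the 4 libraries was most like that of Ctsz, by Euclidean distance of centred log2 values, were Gm4349 (distance 0.0599), the ubiquitin ligase Wwp1 (0.119) and the phosphodiesterase Pde4b (0.122). Their levels were lower than that of Ctsz, for instance 10.2, 8.14, 17.2 and 15.2 RPKM for Wwp1. With only 4 libraries many profiles lie close to each other.

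Promoter windows of 300 bases, from 250 before to 50 after the start, came from RefSeq (GRCm38.p6) for 7 of the 10 genes, in 8 windows because Ctsa has 2 starts. Ctsb, Ctse and Ctsh had no entry. The core CACGTG, which reads the same on both strands, occurred in 3 of the 8 windows, 1 each of Ctsa, Ctsd and Ctsl, and in 7.15% of 32851 windows in the table. The longer TCACGTGA, which contains the core, occurred in the same windows of Ctsa and Ctsd and in 0.974% of all windows. Stretches around the core, in capitals, are shown because these are the letters the lysosomal element shares. Coordinates are of GRCm38.p6, and sequences run in the direction of the gene.
Ctsa, plus strand, chr2:164833739-164833805: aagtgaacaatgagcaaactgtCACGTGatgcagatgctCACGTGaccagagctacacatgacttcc
Ctsd, minus strand, chr7:142387898-142387947: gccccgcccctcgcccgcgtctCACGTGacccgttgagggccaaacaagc
Ctsd, minus strand, chr7:142388045-142388077: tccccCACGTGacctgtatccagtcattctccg
Ctsl, minus strand, chr13:64370729-64370770: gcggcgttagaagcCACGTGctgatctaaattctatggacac

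In Ctsa the cores began at -12 and 6 relative to 1 of the 2 starts, in Ctsd at -98 and -245 and in Ctsl at -236. The start of the Ctsa transcript measured here is known in mm9 and was not matched to either window. The window of the other Ctsa start (chr2:164832622-164832921) and those of Ctsz, Ctsc, Ctsk and Ctss did not hold these letters. The 3 genes with the core in a window had log2 fold changes of 0.16 (Ctsa, whose other window lacked it), 0.33 (Ctsd) and 0.40 (Ctsl). The tested genes whose windows lacked it had 0.83 (Ctsz), 0.24 (Ctsc) and -0.72 (Ctss). A search of 300 bases does not show whether a factor binds.

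Genes around the cathepsins were followed through 8 lists, and no gene of any list was called at an adjusted p under 0.05 by limma as described above. With the replicate block Gzmb was called. Counts at an unadjusted p under 0.05 are given for each list and can be read against the 4.17% of all tested genes that were higher and the 5.21% that were lower. Of 13 other cathepsins, 10 were at 0 in every library and 2 were tested, both with a negative fold change and neither at an unadjusted p under 0.05. Ctsg, the granule serine protease cathepsin G, was at 375.1, 673.7, 547.2 and 419.2 RPKM and overlapped between groups (log2 fold change -0.07). It turned to 0.35 without control 2. Ctso was at 1.16, 2.15, 0.964 and 0.592 RPKM, and its groups did not overlap (log2 fold change -0.56 ± 0.28, limma adjusted p = 0.565). With limma-voom on the recovered reads it was -1.04 at an unadjusted p of 0.0497, and with a pseudocount of 0.1 it was -0.97.

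Among the inhibitors of cathepsins 11 of 17 were tested, with 8 higher, 3 lower and 1 of these lower at an unadjusted p under 0.05. Serpinb1a, an inhibitor of neutrophil serine proteases including cathepsin G, was at 113.5 and 108.3 RPKM in the controls and 58.5 and 49.8 with miR-125b. Its groups were far apart (log2 fold change -1.03 ± 0.19, limma adjusted p = 0.335). Cystatin C (Cst3), the secreted inhibitor of cysteine cathepsins, was at 156.0, 303.4, 323.7 and 273.7 RPKM, and its log2 fold change was 0.45 in all libraries and -0.03 without control 1. Serpina3g overlapped between groups at 346.0, 413.2, 384.3 and 430.6 RPKM. The list median of 0.21 depended on the libraries, at -0.02 without control 1 and -0.28 without miR-125b 1. Its count at an unadjusted p under 0.05 was 4 without control 2, 3 without miR-125b 1 and 4 without miR-125b 2. In the last case Stfa1, Stfa2 and BC100530, named after their values were seen, were called at an adjusted limma p under 0.05. These stefin genes are close copies whose reads can be split, and they were high in miR-125b 1 alone (Stfa2 at 2.32, 0.456, 15.5 and 1.21 RPKM).

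Of 10 lysosomal processing enzymes and partners, 7 were higher and 3 lower (median 0.20), with 2 higher and 1 lower at an unadjusted p under 0.05, or 1 and 2 without control 1 and 0 and 1 without miR-125b 2. Without control 1 the list had 6 higher and 4 lower with a median of 0.02, and without control 2 the median was 0.34. Lamp1, the abundant membrane protein of the lysosome, was at 175.5 and 212.7 RPKM in the controls and at 334.7 and 295.2 with miR-125b, without overlap (log2 fold change 0.70 ± 0.21, limma adjusted p = 0.464). Neu1 and Glb1, the enzymes held by cathepsin A, lay in opposite directions. Neu1 was at 8.19 and 12.5 RPKM in the controls and at 4.36 and 4.01 with miR-125b (log2 fold change -1.10 ± 0.23, limma adjusted p = 0.363). Glb1, named after its values were seen, was at 29.6 and 30.3 against 38.6 and 60.6 RPKM (0.67 ± 0.25, limma adjusted p = 0.505), and its log2 fold change was 0.35 without miR-125b 2. The progranulin gene Grn overlapped at 176.4, 379.7, 236.4 and 163.0 RPKM, with -0.40 in all libraries and 0.15 without control 2.

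Of the mannose 6-phosphate sorting genes 9 of 10 were tested, 2 higher and 7 lower, with a median of -0.31 and 2 lower at an unadjusted p under 0.05. M6pr, the cation-dependent receptor that carries the precursors to endosomes, was at 98.0 and 82.8 RPKM in the controls and at 58.7 and 53.4 with miR-125b. The groups did not overlap (log2 fold change -0.68 ± 0.20, limma adjusted p = 0.464). The list median was -0.51 without control 1, -0.10 without control 2 and -0.12 without miR-125b 1. Its count at an unadjusted p under 0.05 was 0 without either miR-125b library, 4 without control 1 and 1 without control 2. Gnptab, the transferase that adds the tag, was at 39.9, 48.9, 43.5 and 40.6 RPKM (-0.07) and did not separate. M6pr and Neu1, named for the smallest p in their lists, each hold an 8mer for miR-125b, shown here because no cathepsin does. Of the other genes named for the smallest p, Gzmb (-2.27) and Serpinb1a (-1.03) were lower and hold none of the sites. Ctso (-0.56) was lower and holds a 6mer. H2-DMa (0.84) was higher and holds a 7mer-m8, and Fnip1 and Atp6v1a were higher and hold none. Whether any site acts was not tested. Gga2, a sorting adaptor in the list of M6pr, named after its values were seen, also holds an 8mer and was at 18.0, 18.9, 16.4 and 17.7 RPKM (log2 fold change -0.11 ± 0.17, limma adjusted p = 0.841). The median log2 fold change of the 495 tested genes with an 8mer was -0.13, against 0.05 for genes with no site.
M6pr, position 850 of 1230: tctcctgctggCTCAGGGAagtgtctgacc
Neu1, position 314 of 1090: acagatacgaaCTCAGGGAactgagaaggc

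Of 11 listed MiT factors and regulators 8 were found under the symbols used. Tfeb, Tfe3 and Tfec were not found, and other symbols for them were not searched. Of the factors themselves only Mitf was thus analysed, at 1.91, 2.07, 2.01 and 1.27 RPKM with overlapping groups (log2 fold change -0.19). The 7 tested genes, Mitf and 6 regulators, gave 4 higher and 3 lower, none at an unadjusted p under 0.05 and 1 without either control. Fnip1, a partner of folliculin, was at 9.54 and 10.9 against 14.3 and 12.8 RPKM, without overlap (log2 fold change 0.37, limma adjusted p = 0.562), and the GC correction moved it to 0.21. Rraga and Rragc, the GTPases of the lysosomal surface, had log2 fold changes of 0.27 and 0.14. The vacuolar ATPase, which acidifies the lysosome, had 8 subunit genes higher and 8 lower among 16 tested of 18, with 0 at an unadjusted p under 0.05 and a median of 0.05. Without control 1 that count was 4, and without control 2 it was 1. Atp6v1a, the catalytic subunit, was at 53.8 and 48.5 against 72.9 and 64.8 RPKM (0.42 ± 0.19, limma adjusted p = 0.546), while Atp6v1f (-0.19) and Atp6v0e (-0.06) overlapped.

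The granule serine proteases that cathepsin C activates gave 5 tested of 14, 2 higher and 3 lower, and 1 lower at an unadjusted p under 0.05. Without control 2 the split was 4 higher and 1 lower, and without control 1 it was 1 and 4. Prtn3, proteinase 3, was at 319.2, 758.5, 497.9 and 364.3 RPKM, with -0.21 in all libraries, 0.41 without control 2 and -0.05 under the GC correction. Granzyme B (Gzmb) was at 206.5 and 109.2 RPKM in the controls and at 38.8 and 23.5 with miR-125b (log2 fold change -2.27 ± 0.36, limma adjusted p = 0.249). It was called with 1 miR-125b library left out (limma adjusted p = 3.43e-05 without miR-125b 1 and 0.0291 without miR-125b 2) and with the replicate block (0.0134). Ctsc, its activator, had 58.0 and 70.5 RPKM with miR-125b. MHC class II genes, whose products cathepsin S serves, were tested for 5 of 9, with 4 higher, 1 lower, and 1 higher at an unadjusted p under 0.05, which was 0 without miR-125b 1. H2-DMa was at 2.28 and 2.22 RPKM against 6.19 and 3.71 (0.84 ± 0.25, limma adjusted p = 0.464, and 0.53 without miR-125b 1), and H2-DMb1 at 11.0, 8.93, 11.5 and 12.5. Cd74, the invariant chain that cathepsin S cleaves, was at 11.8, 29.4, 29.7 and 11.0 RPKM and overlapped.

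**Figure D4:**
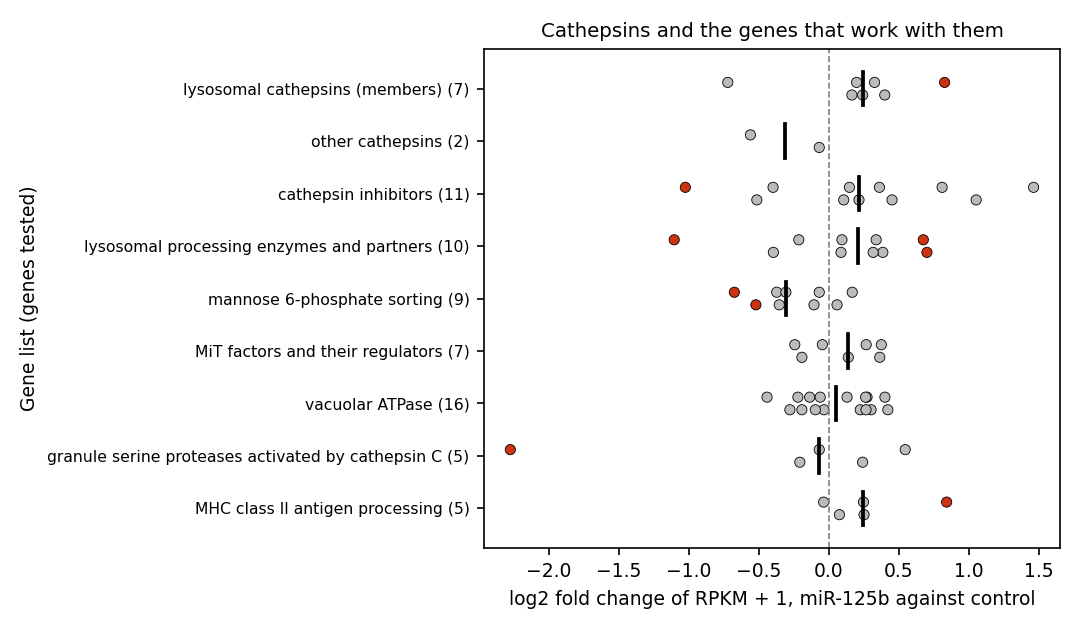
Log2 fold change of each tested gene in the cathepsins and in the 8 lists around them, 1 point per gene, with the list median as a bar. Medians run from -0.32 for the other cathepsins to 0.25 for MHC class II genes, and that of the cathepsins is 0.24.

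Macrophage markers were set beside the cathepsins because Ctsz is a gene of that lineage. Of 12 listed, 3 were tested, the sum of those in the tables was 54.3 and 73.6 RPKM in the controls and 112.1 and 89.8 with miR-125b, and Marco and C1qb were at 0 in every library. Cd68, itself a lysosomal membrane protein, made up most of the sum in the miR-125b libraries. It was the 1 tested marker with a positive fold change, at 26.0 and 39.1 against 85.2 and 76.7 RPKM (log2 fold change 1.32 ± 0.24, limma adjusted p = 0.333). Emr1 was at 27.2, 30.6, 24.4 and 11.3 RPKM, lower in both miR-125b libraries (log2 fold change -0.76). Csf1r, the receptor for macrophage colony-stimulating factor, was at no more than 1.32 RPKM in any library (-0.03). The summed osteoclast markers, mostly Itgb3, were 97.0, 159.5, 78.0 and 86.3 RPKM. The part of these markers in the Ctsz result was not tested.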

How the data were processed

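The authors deposited 1 table per library with RPKM for each RefSeq transcript on mm9, the build being named in the submitters' processing notes. Aligner, counter and use of strand: not given in the sources used here. Multiplied by exon length, the deposited RPKM gave whole reads in 100% of transcripts (tolerance 0.001), so RPKM is scaled by the reads assigned to transcripts. Totals were 10.4 to 12.6 M reads. The longest transcript was kept per gene, and only genes with at least 1 RPKM in at least 2 libraries were tested. Groups came from the titles. The test was limma 3.58.1 (R 4.3.3; 2-sided, moderated, with a trended prior) on log2(RPKM + 1), which understates changes of low genes, adjusted by Benjamini-Hochberg over 10310 genes. The script was tested on simulated data. Residual degrees of freedom were 2 and prior 4.63. For each list the 2 most abundant tested genes and the gene with the smallest p are named, and for Ctsz the 3 genes nearest in profile. The members, lists and rules were chosen with earlier results of these data known. Another 13 settings were tried, among them other pseudocounts, filters and normalizations, GC correction, limma-voom on recovered reads, a replicate block and leaving out each library. Sites were read in GENCODE M21 for transcripts matched by accession, or by gene symbol where no accession matched, keeping the longest 3′ UTR. All cathepsins were matched by accession. Promoters and the miRNA were read in RefSeq.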

Additional observations from a re-analysis of the deposited data

How the results depend on the processing

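The count of cathepsins called at an adjusted p under 0.05 was 0 under all 13 alternatives. The number at an unadjusted p under 0.05 ranged from 0 to 3 when single libraries were left out, against 1 in all, and the median log2 fold change from 0.10 to 0.39. Over all genes the calls ranged from 0 to 108 and the genes at an unadjusted p under 0.05 from 322 to 3018. Deviations of the samples of equal replicate number correlated at 0.021 over genes. A single correlation from 4 libraries cannot decide whether these samples were paired. With a replicate block 12 genes were called and no cathepsin. With single libraries left out, values of the other sign appeared for Ctsa (-0.059 to 0.39), Ctsg (-0.49 to 0.35), Serpina3g (-0.023 to 0.23), Cst3 (-0.028 to 0.93), Grn (-0.95 to 0.15), Gnptab (-0.21 to 0.075), Atp6v1f (-0.45 to 0.062), Atp6v0e (-0.19 to 0.061), Prtn3 (-0.83 to 0.41) and Cd74 (-0.72 to 0.64). Cd74 was also 0.037 under the GC correction. The settings for list genes were added after seeing the data, and the causes were not tested. Leaving out a library leaves 1 sample in its group, which is taken to vary like the other group. Depth limits Ctsk, Ctse and Ctsh, and Ctsl and Ctss rest on 42 to 167 reads.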
